A study of Bos taurus with 56 samples.

Results

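In lactating cows, the isthmus on the side of the corpus luteum (CL), called ipsilateral, was compared with the contralateral isthmus. It used 8 of the 56 libraries of the series, 4 ipsilateral and 4 contralateral, which the group names in the column headers of the deposited table selected. The tag that ends each header tied the libraries to 4 cows, named A to D here, so that every ipsilateral library had the contralateral library of the same cow as its partner. The series measured RNA of oviduct epithelium on both sides, in ampulla and isthmus, and took nulliparous heifers and non-lactating cows beside the lactating ones.

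The lactating cows were primiparous Holstein cows that had been milked since calving. At about 60 days post-partum, estrus was synchronized with a progesterone device, a prostaglandin F2 alpha analogue and buserelin, and the cows were slaughtered without insemination on Day 3 after estrus. Heifers and non-lactating cows, which serve below only to place the lactating cows, went through the same synchronization, and the non-lactating cows had never been milked. Cells were scraped from the lumen, so each library is a bulk of whatever the scraping took up. In such a bulk, fewer cells of a type and less RNA per cell cannot be told apart.

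The isthmus is the narrow part of the oviduct that joins the uterus. It holds spermatozoa before ovulation and is crossed by the early embryo on its way to the uterus. After ovulation the ruptured follicle becomes the CL, which secretes progesterone, and blood draining the ovary can pass hormone to the neighboring oviduct by local exchange between vessels. Progesterone and estradiol act on the epithelium through nuclear receptors, which change transcription of genes for secretion, ion transport and ciliary activity. Comparing both isthmi within a cow sets the side next to the CL against the other side at the same circulating level.

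Each library held 4293913 to 6208967 read counts on genes (median 4855287). These were 8.66 to 11.5% of the counted alignments, and the 10 highest genes took 4.96 to 7.58% of them. Values below are CPM, the counts of a gene scaled to library size after TMM normalization, and every fold change is the ipsilateral side relative to the contralateral side of the same cow. Differential expression was tested with edgeR's quasi-likelihood test with the cow as a block, and a gene is called here when its Benjamini-Hochberg adjusted p was under 0.05.

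Keratins and ciliary genes were abundant in all 8 libraries. The 9 epithelial markers found in the table summed to 1498 to 2244 CPM and the 15 markers of ciliated cells to 6533 to 10083 CPM. OVGP1, the oviduct-specific glycoprotein of secretory cells, reached 2037 to 14716 CPM. Markers of red blood cells summed to at most 1.42 CPM, with HBA and HBB at 0 in all libraries. The 8 markers of granulosa and luteal cells summed to 13.7 to 36.3 CPM, most of it LHCGR, the luteinizing hormone receptor, at a mean of 20.4 CPM ipsilaterally and 23.9 CPM contralaterally, and FSHR and HSD3B1 were at 0. Cow A stood apart on both sides. Its T and natural killer cell markers summed to 226 CPM ipsilaterally and 152 CPM contralaterally against 13.2 to 31.3 CPM in the other cows, its B and plasma cell markers to 188 and 133 CPM against 7.79 to 16.4 CPM, and its myeloid markers to 252 and 180 CPM against 44.6 to 90.5 CPM.

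**Figure D1:**
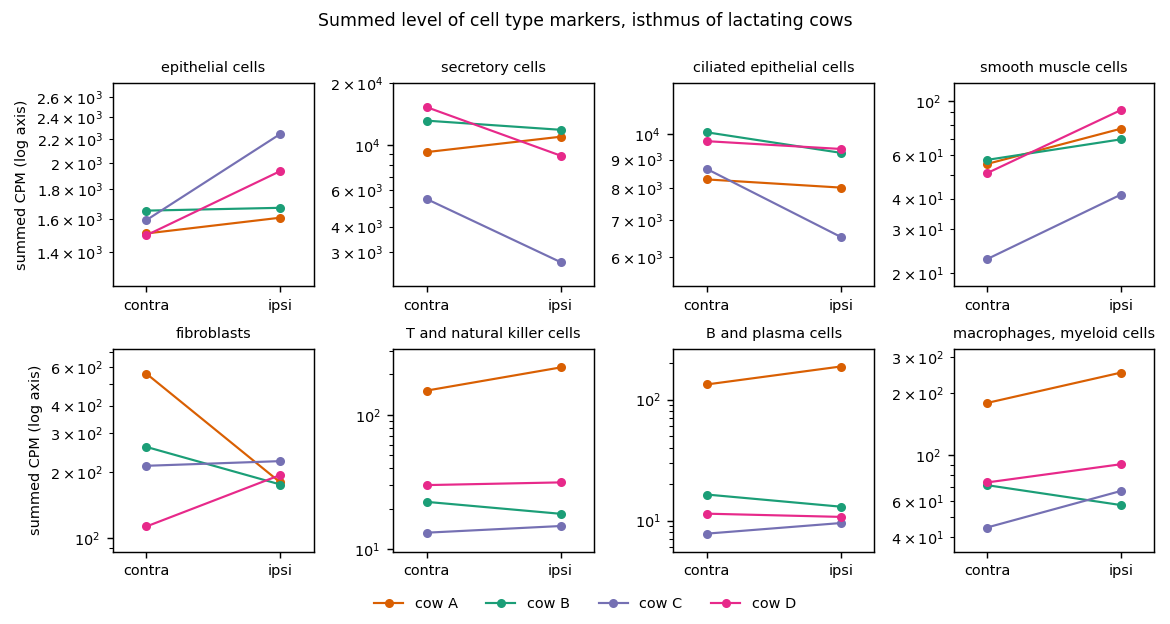
Summed CPM (log axis) of the marker genes of 8 cell types in the contralateral and ipsilateral isthmus, with 1 line for each cow. Cow A lies far above the other cows for T and natural killer, B and plasma and myeloid cells on both sides, and the epithelial sum was higher ipsilaterally in 4 of 4 cows.

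Between the sides, 323 of 13904 genes tested were called (2.32%). Of these, 203 were up-regulated (1.46%) and 120 down-regulated (0.863%) in the ipsilateral isthmus. Each of the 323 genes moved the same way in 4 of 4 cows, which the paired test that chose them favors. The median fold was 1.94 for up-regulated genes and 1.90 for down-regulated genes, and 92 up-regulated and 53 down-regulated genes changed by more than 1 on the log2 scale. Over all genes tested the median log2 fold change was -0.0037. The 4 ipsilateral and the 4 contralateral values did not overlap for 219 of the called genes, against 1065 of all genes tested (7.66%) and overlapped for 104.

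The count rested on the pairing and on single cows. Without the cow in the model 26 genes were called, all of them among the 323. Leaving out cow A raised the count to 639, while leaving out cow B, C or D lowered it to 18, 143 and 75. DESeq2's Wald test called 454 genes with the cow as a block and 331 without it. The naming rule given below chose 66 called genes. All kept their direction with each cow left out in turn, which follows from their moving the same way in 4 of 4 cows. The call held each time for 14 of them, which were ACP5, ACSL4, AGT, ALDOA, CAMK2B, DBI, KLF11, LTF, MIF, MUC4, PDE2A, PDZK1IP1, SCP2 and SLC7A5. The other 52 lost it without cow B, at edgeR adjusted p of 0.0565 to 0.220, and 25 and 39 of them also without cow C or cow D. Called genes described below outside that rule were not followed with a cow left out.

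**Figure D2:**
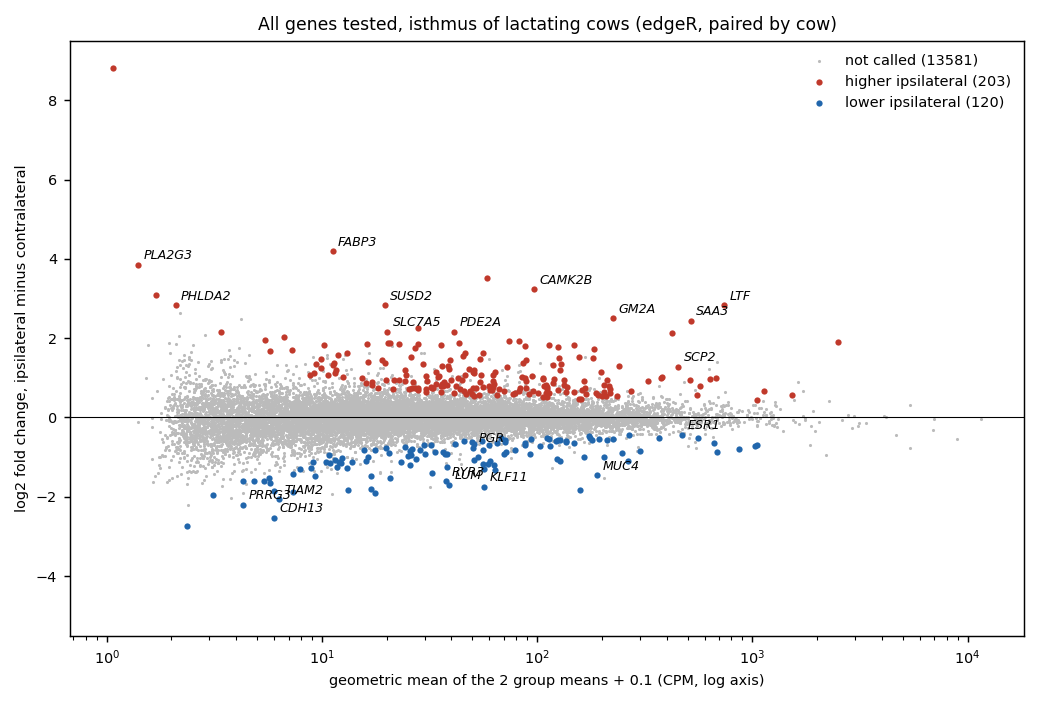
Log2 fold change, ipsilateral minus contralateral, against mean level (CPM, log axis) for the 13904 genes tested. The 203 genes called higher ipsilaterally are red and the 120 called lower are blue. The highest point is LOC101906669, which had no count in any contralateral library.

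FABP3, which carries fatty acids within cells, showed the largest increase among genes with a symbol. Its ipsilateral values were 36.2, 50.0, 57.6 and 45.3 CPM in cows A to D, and its contralateral values 4.87, 2.28, 0.216 and 2.85 CPM. No contralateral library came near an ipsilateral one. The log2 fold change was 4.20 ± 0.43 (SE, n = 4 pairs, adjusted p = 0.00249 by edgeR's quasi-likelihood test). In cow C the contralateral level was 1 read, so the size of that cow's difference is poorly defined, and without cow B the edgeR adjusted p for FABP3 was 0.0595.

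CAMK2B, a subunit of a calmodulin-dependent kinase, stood at 144, 453, 310 and 299 CPM on the ipsilateral side of cows A to D. On the contralateral side it was at 26.2, 43.4, 17.5 and 36.8 CPM. The groups were far apart, and cow A had the lowest ipsilateral level (log2 fold change 3.24 ± 0.23, edgeR adjusted p = 0.000838). PDE2A, a phosphodiesterase that breaks down cAMP and cGMP, was at 75.4 to 108 CPM ipsilaterally and 13.8 to 24.9 CPM contralaterally (log2 fold change 2.17 ± 0.15, edgeR adjusted p = 0.000838). These were the only genes called out of 27 tested for calcium, cyclic nucleotide and calmodulin signaling, and the median log2 fold change of that list was -0.10.

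LTF encodes lactoferrin, an iron-binding protein of mucosal secretions. It was at 4160, 1035, 864 and 538 CPM on the ipsilateral side of cows A to D and at 1032, 146, 64.3 and 75.9 CPM on the contralateral side. The contralateral level of cow A was as high as the ipsilateral levels of the other cows, so the groups overlapped although each cow rose (log2 fold change 2.84 ± 0.24, edgeR adjusted p = 0.000962). Markers of myeloid cells, some of which also store lactoferrin, were high in the same cow, and their part in the result was not tested. Without cow A, LTF rose by 3.13 on the log2 scale.

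The remaining large increases covered lipid, solute and signaling genes. PLA2G3, a secreted phospholipase, had 3.96 to 5.68 CPM ipsilaterally and no more than 1.01 CPM contralaterally, with 2 libraries at 0. GM2A, a lysosomal lipid-transfer protein, had 331 to 618 CPM against 26.2 to 143 CPM. Their log2 fold changes were 3.86 ± 0.70 and 2.51 ± 0.33 (edgeR adjusted p = 0.0311 and 0.00826), with no overlap. SUSD2, a membrane protein, rose by 2.83 (21.3 to 87.2 against 5.81 to 8.44 CPM), and PHLDA2, an imprinted gene, by 2.83 from at most 1.08 CPM. PDZK1IP1 rose by 2.24 and the haem and choline transporter family member FLVCR2 by 2.15 on the log2 scale.

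LOC101906669 was counted at 23, 127, 45 and 31 reads in the ipsilateral libraries of cows A to D and at 0 in all contralateral libraries. Against a floor of 3 reads per library this was at least 17.6-fold higher ipsilaterally. The table gives this locus no other name.

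CDH13, an adhesion protein of the cadherin family, showed the largest decrease among genes with a symbol. It was at 1.41, 3.15, 2.23 and 2.31 CPM ipsilaterally and at 13.6, 9.55, 30.9 and 6.41 CPM contralaterally in cows A to D. All contralateral libraries lay above all ipsilateral ones (log2 fold change -2.53 ± 0.41, edgeR adjusted p = 0.0216). TIAM2, an exchange factor for the GTPase Rac, was at 2.31 to 4.82 against 8.07 to 20.1 CPM (log2 fold change -2.07 ± 0.25, edgeR adjusted p = 0.00489).

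KLF11, a zinc-finger transcription factor, was the most abundant of these decreases without overlap, with 24.9, 46.2, 21.1 and 32.6 CPM ipsilaterally and 87.4, 120, 116 and 87.1 CPM contralaterally. It fell by 1.75 ± 0.18 on the log2 scale (edgeR adjusted p = 0.00249). The protocadherin DCHS1, NXPH3 and PRRG3 fell by 1.66, 1.95 and 2.20, also without overlap. NPL, FBLN5, AOX3L1 and RYR3 fell by 1.91, 1.89, 1.82 and 1.61 with overlap between the sides. AOX3L1 differed widely between cows. It stood at 13.1 and 11.8 CPM in the ipsilateral libraries of cows A and C and at 2.08 and 3.32 CPM in the contralateral libraries of cows B and D. AOX3L1 belongs to a family of similar genes. Reads without a unique alignment entered no gene's count, so reads that also match its relatives may be missing.

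LUM, the matrix proteoglycan lumican made by fibroblasts, was called lower but depended on cow A for most of its reads. Its contralateral values were 297, 4.15, 0.866 and 9.49 CPM and its ipsilateral values 70.2, 0.630, 0.203 and 6.10 CPM in cows A to D. The log2 fold change was -1.70 ± 0.29 (edgeR adjusted p = 0.0260), and LUM lost its call without cow A (-1.34, adjusted p = 0.191) and without cow B (-1.58, adjusted p = 0.124). Of the 7 fibroblast markers tested no other was called, and their sum was 113 to 559 CPM contralaterally, highest in cow A, and 176 to 224 CPM ipsilaterally.

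**Figure D3:**
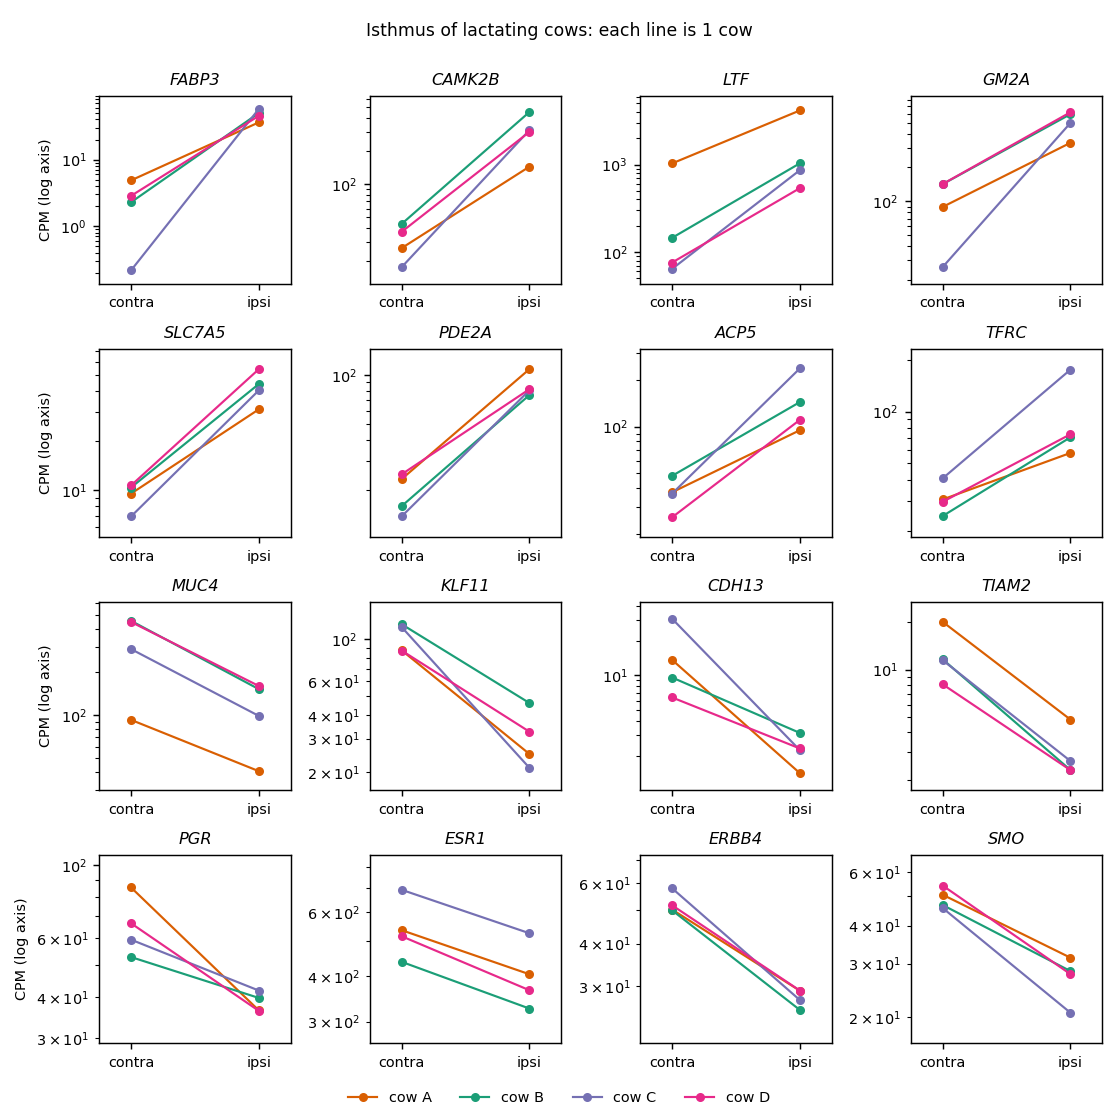
CPM (log axis) of 16 genes in the contralateral and ipsilateral isthmus, with 1 line for each of the 4 cows. All lines of the upper 8 genes rise toward the ipsilateral side and all lines of the lower 8 fall, and of these 16 genes LTF, MUC4 and ESR1 overlap between the sides.

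The receptors PGR and ESR1 for ovarian steroids were down-regulated on the side of the CL. PGR, the progesterone receptor, was at 36.4, 39.7, 41.8 and 36.3 CPM ipsilaterally and at 85.6, 52.7, 59.5 and 66.7 CPM contralaterally in cows A to D. The ipsilateral values were nearly uniform and lay below every contralateral value (log2 fold change -0.76 ± 0.15, edgeR adjusted p = 0.0385). ESR1, the estrogen receptor alpha, was at 405, 326, 525 and 366 CPM ipsilaterally and at 536, 438, 692 and 515 CPM contralaterally. ESR1 fell in each cow by a similar amount, while the cows ranged more widely than the sides (log2 fold change -0.43 ± 0.09, edgeR adjusted p = 0.0480). Both calls were close to the threshold. With cow B, C or D left out the edgeR adjusted p was 0.0655 to 0.170 for PGR and 0.110 to 0.216 for ESR1, while the log2 fold changes stayed at -0.72 to -0.87 and at -0.41 to -0.44. ESR2, the estrogen receptor beta, averaged 87.0 CPM ipsilaterally and 73.6 CPM contralaterally, was higher in 3 of 4 cows and did not pass the test (edgeR adjusted p = 0.559). NR3C1, the glucocorticoid receptor, averaged 108 ± 18.2 against 147 ± 29.9 CPM (SD, n = 4) and did not pass the test (edgeR adjusted p = 0.212). Of 13 receptors for steroids and prostaglandins tested, 2 were called lower and 0 higher, and the list's median log2 fold change was -0.33. None of 10 genes of prostaglandin synthesis and transport was called by edgeR, with 2 higher and 0 lower at an unadjusted p under 0.05, and DESeq2 with the cow as a block called AKR1B1 alone. PTGS2, the inducible cyclooxygenase, was at 2.43 to 3.46 CPM ipsilaterally and 0 to 5.19 CPM contralaterally, and PTGES was too low to be tested.

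Genes for secreted proteins and mucosal defence held the largest share of calls among the lists. The lists and their members were chosen with earlier results of these data known, so this ranking may follow from that choice. Of 27 secreted and defence genes tested, 12 were up-regulated and 1 down-regulated ipsilaterally, with a median log2 fold change of 1.04. Over all genes tested, to be set beside every list here, 1.46% were called higher and 0.863% lower. SAA3, a serum amyloid A protein of mucosal surfaces, was at 1482, 775, 812 and 1327 CPM ipsilaterally and at 474, 250, 57.6 and 190 CPM contralaterally in cows A to D. Every ipsilateral value exceeded every contralateral one (log2 fold change 2.44 ± 0.33, edgeR adjusted p = 0.00859). Reads of SAA3 that also match M-SAA3.2 may be missing from its count, since reads without a unique alignment were not counted. M-SAA3.2 is a close relative that was itself called (log2 fold change 1.90). ACP5, an acid phosphatase, was at 94.7 to 239 against 25.6 to 47.7 CPM (log2 fold change 1.94 ± 0.21, edgeR adjusted p = 0.00281). AGT, the precursor of angiotensin, was among the steadiest, at 282, 298, 358 and 387 CPM ipsilaterally and 90.0, 126, 70.5 and 122 CPM contralaterally (log2 fold change 1.72 ± 0.16, edgeR adjusted p = 0.00191).

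The other increases in this list were ANG (1.86), BPIFB1 (1.82), S100A4 (1.71), WFDC15B (1.37), CFB (1.22), GSN (1.21), TIMP1 (1.04) and WFDC2 (0.99) on the log2 scale. ANG is a secreted ribonuclease, BPIFB1 a bactericidal/permeability-like protein of airways, CFB a complement factor and TIMP1 an inhibitor of matrix proteases. The only decrease was MUC4, a membrane mucin, which stood at 40.6, 151, 98.5 and 159 CPM ipsilaterally and 92.5, 453, 288 and 445 CPM contralaterally. Cow A was lowest on both sides, which produced the overlap, and each cow fell by a similar factor (log2 fold change -1.46 ± 0.11, edgeR adjusted p = 0.000882). OVGP1 was at 9585, 11312, 2037 and 8176 CPM ipsilaterally and 8696, 12655, 5013 and 14716 CPM contralaterally, with 3 of 4 cows lower ipsilaterally and no call (edgeR adjusted p = 0.220).

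Fatty acid and cholesterol genes were called in 1 direction by edgeR. For fatty acid and acyl-CoA handling, 6 of 25 genes tested were up-regulated and 0 down-regulated, with a median log2 fold change of 0.48. Besides FABP3 they were DBI, which binds acyl-CoA, SCP2, a lipid-transfer protein of peroxisomes, ACSL4, which activates long fatty acids, the elongase ELOVL6 and the lipid-droplet protein PLIN3. SCP2 was at 582, 816, 416 and 993 CPM ipsilaterally and at 276, 332, 155 and 399 CPM contralaterally, more than 2-fold higher in each cow (log2 fold change 1.28 ± 0.10, edgeR adjusted p = 0.000962). DBI rose by 1.46 ± 0.13 (58.4 to 70.7 against 18.6 to 30.7 CPM), ACSL4 by 1.14 ± 0.11 (226 to 370 against 102 to 182 CPM), and ELOVL6 and PLIN3 each by 0.94. FASN, the fatty acid synthase, averaged 166 ± 26.2 against 118 ± 13.6 CPM (SD, n = 4) and was not called. CD36, a fatty acid transporter, was at 1.89 to 15.3 against 3.90 to 14.0 CPM without a call.

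For cholesterol synthesis, uptake and efflux, 4 of 31 genes were up-regulated and 0 down-regulated (median log2 fold change 0.39). They included the sterol reductase TM7SF2 (1.39 ± 0.18) and HMGCS1, an early enzyme of the pathway (0.83 ± 0.15), neither of which overlapped between the sides. ABCA1, which exports cholesterol, was at 117 to 159 against 178 to 298 CPM, lower in 4 of 4 cows, and just missed the threshold (edgeR adjusted p = 0.0525), while DESeq2 with the cow as a block called it.

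Transporters of amino acids were called in both directions. SLC7A5, the light chain of a large neutral amino acid exchanger, was at 31.0, 44.1, 40.3 and 54.2 CPM ipsilaterally and 9.53, 10.4, 6.92 and 10.7 CPM contralaterally (log2 fold change 2.16 ± 0.18, edgeR adjusted p = 0.000962). Its heavy-chain partner SLC3A2 rose by 0.62 ± 0.12 (123 to 150 against 65.8 to 107 CPM). SLC38A2, a sodium-coupled glutamine transporter, fell by 0.62 ± 0.11 (96.1 to 119 against 154 to 196 CPM). The list also held SLC43A3, a transporter of purine nucleobases, which rose by 1.62. With SLC43A3 counted, 3 of 20 genes tested in this list were up-regulated and 1 was down-regulated. In arginine, proline and polyamine metabolism 3 of 21 were up-regulated and 0 down-regulated. ODC1, the first enzyme of polyamine synthesis, stood at 21.3, 56.5, 59.8 and 40.7 CPM against 13.8, 18.7, 9.31 and 17.8 CPM. The levels separated fully, and the rise was smallest in cow A (log2 fold change 1.52 ± 0.28, edgeR adjusted p = 0.0315). The spermine synthase SMS rose by 0.57 and ALDH18A1, which starts proline synthesis, by 0.69.

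In glycolysis and lactate handling 3 of 22 genes tested were up-regulated and 0 down-regulated, and in the TCA cycle list 2 of 22 and 0. ALDOA, the glycolytic aldolase, was at 273, 289, 282 and 318 CPM ipsilaterally and 145, 169, 142 and 150 CPM contralaterally. Its values hardly varied within a side (log2 fold change 0.94 ± 0.10, edgeR adjusted p = 0.00310). TPI1 rose by 0.61 and the lactate exporter SLC16A3 by 1.08, the latter not called by DESeq2 with the cow as a block. OGDH, a subunit of the oxoglutarate dehydrogenase, rose by 0.96. The other call of the TCA cycle list, CYCS, is cytochrome c of the respiratory chain and no enzyme of the cycle. It rose by 1.11. HK1, the hexokinase that starts glycolysis, averaged 59.8 ± 2.89 against 61.0 ± 4.66 CPM, the glucose transporter SLC2A1 63.2 ± 10.7 against 54.5 ± 7.21 CPM, and the citrate synthase CS 60.4 ± 3.33 against 50.2 ± 7.16 CPM (SD, n = 4), and none of these was called.

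Of 36 genes for glutathione, antioxidants and metallothioneins 5 were up-regulated and 0 down-regulated. MIF, a cytokine with tautomerase activity, was at 305 to 486 against 130 to 176 CPM (log2 fold change 1.30 ± 0.12, edgeR adjusted p = 0.00191). The glutathione transferases GSTT2 and GSTM1 rose by 1.19 and 0.93, thioredoxin TXN by 0.84 and the peroxiredoxin PRDX1 by 0.62. GSTM1 belongs to a cluster of similar genes, so reads without a unique alignment may be missing from its count. GSTM1 lost its call also without cow A (edgeR adjusted p = 0.0693). GCLC, which limits glutathione synthesis, averaged 17.5 ± 4.05 against 17.7 ± 2.68 CPM and was not called.

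Among 15 genes of iron, haem and metal transport, 3 were up-regulated and 1 was down-regulated. TFRC, the transferrin receptor, was at 57.3, 70.7, 176 and 73.7 CPM ipsilaterally and 30.6, 24.5, 40.7 and 29.7 CPM contralaterally. Cow C was highest on both sides, and all ipsilateral values exceeded the contralateral ones (log2 fold change 1.48 ± 0.18, edgeR adjusted p = 0.00651). The metal transporters of the SLC39 family moved apart. SLC39A8 rose by 1.32 ± 0.23 with overlap between the sides, and SLC39A14 fell by 0.92 ± 0.18 from 35.1 to 51.0 CPM contralaterally to 15.0 to 27.3 CPM ipsilaterally. In the endoplasmic reticulum and secretory pathway 1 of 35 genes tested was called, close to the 2.32% over all genes. It was the collagen lysyl hydroxylase PLOD1 (131 to 460 against 65.6 to 114 CPM, log2 fold change 1.52 ± 0.21). The log2 fold change was above 0 for 31 of the 35, and DESeq2 with the cow as a block also called CALR and SEC61G. HSPA5, the main chaperone of this compartment, averaged 171 ± 23.3 against 136 ± 33.0 CPM and was not called.

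Signaling genes moved in both directions. Of 30 genes of the WNT, hedgehog and TGF-beta pathways 2 were up-regulated and 2 down-regulated. SMO, the transducer of the hedgehog pathway, was at 31.4, 28.3, 20.7 and 27.7 CPM against 50.5, 46.7, 45.7 and 54.1 CPM (log2 fold change -0.88 ± 0.13, edgeR adjusted p = 0.0176). The sides did not overlap. The latent TGF-beta binding proteins split, LTBP2 rising by 1.44 and LTBP1 falling by 0.99. In the EGF, MAPK and immediate early list 1 of 32 genes tested was called, close to the 2.32% over all genes. It was ERBB4, a receptor of neuregulins. It was at 29.1, 25.6, 27.4 and 29.2 CPM against 50.3, 50.0, 58.0 and 51.7 CPM, with little spread within a side (log2 fold change -0.91 ± 0.12, edgeR adjusted p = 0.00867).

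EdgeR called no gene in 3 other lists, namely ion, bicarbonate and water transport (0 of 20), interferon response and MHC (0 of 28) and proliferation (0 of 25). At the 2.32% called over all genes, lists of these sizes would hold fewer than 1 call each. At an unadjusted p under 0.05 they held 4 higher and 3 lower, 3 and 0, and 1 and 4 genes, and DESeq2's Wald test with the cow as a block called ANO1 and SCNN1A in the first, IFI6 in the second and UHRF1 in the third. CFTR, the chloride and bicarbonate channel, averaged 91.8 ± 54.0 against 128 ± 75.3 CPM, and the proliferation marker MKI67 14.5 ± 12.8 against 16.3 ± 13.7 CPM (SD, n = 4). For both of them the cows differed far more than the sides. CFTR was lower ipsilaterally in 3 of 4 cows (edgeR unadjusted p = 0.0432). It was called lower in heifers (log2 fold change -0.79) and in non-lactating cows (-1.63), while MKI67 was called in neither group.

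**Figure D4:**
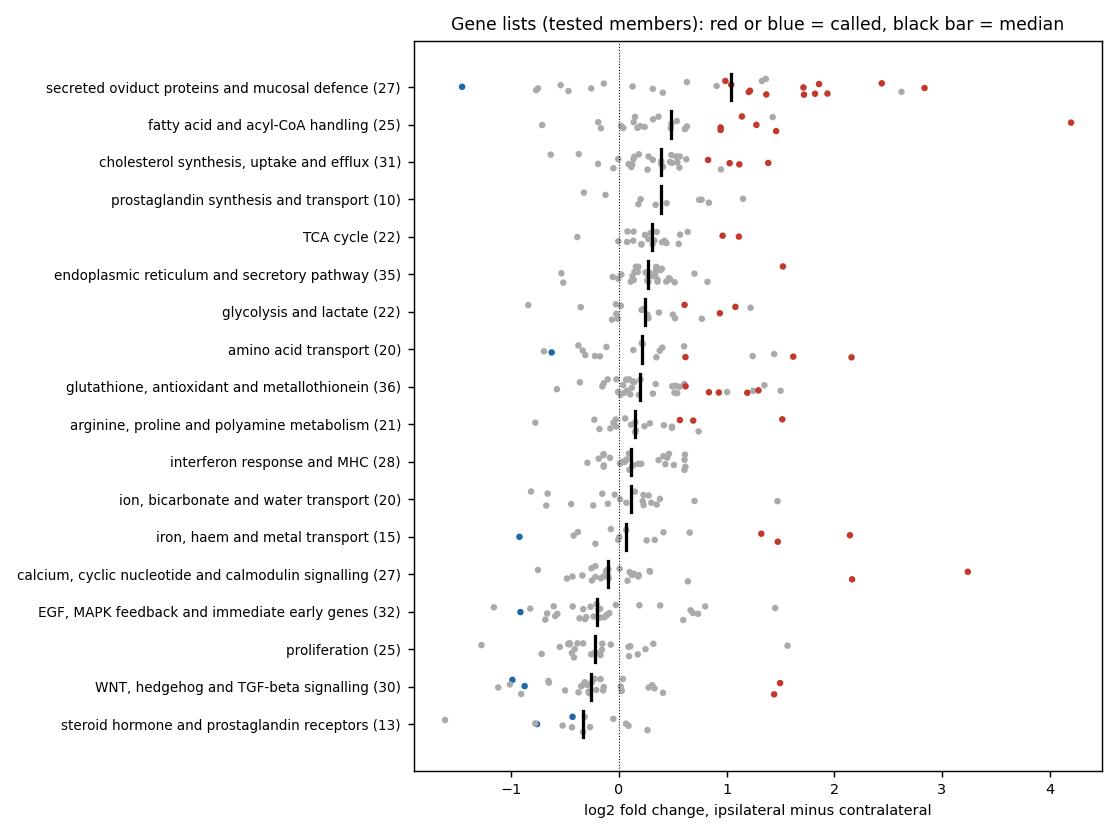
Log2 fold change, ipsilateral minus contralateral, of the tested members of 18 gene lists (number tested in parentheses), with called genes in red or blue and the median as a black bar. Secreted and defence genes lie highest with a median of 1.04, and receptors lowest with -0.33. The lists were chosen with earlier results of these data known.

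Among the cell type markers edgeR called WFDC2, a protease inhibitor of secretory cells, and LUM, a proteoglycan of fibroblasts. The epithelial sum was higher ipsilaterally in 4 of 4 cows (median 1804 against 1551 CPM), the ciliated sum lower in 4 of 4 (8639 against 9190 CPM), and the smooth muscle sum higher in 4 of 4 (73.3 against 53.1 CPM). The sum of secretory markers was lower ipsilaterally in 3 of 4 cows, with cow C at 2685 against 5451 CPM. OVGP1 made up most of this sum. Of the 6 secretory markers tested, 3 had a log2 fold change above 0, WFDC2 among them, and 3 below. The endothelial sum was lower in 3 of 4 cows, with a median of 34.2 against 73.6 CPM, and none of its 5 members tested was called (2 lower at an unadjusted p under 0.05), while CLDN5 was at 0 in all libraries. These sums moved beside the genes above, and their part in those results was not tested.

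The same contrast in the other animals placed the lactating cows. With the animal as a block, edgeR called 1916 of 13548 genes (14.1%) between the isthmi of 5 heifers and 1038 of 13869 (7.48%) between those of 5 non-lactating cows. The count of the lactating cows rested on 4 pairs and ranged from 18 to 639 with a cow left out. The 3 counts therefore do not compare the size of the side effect between the groups. The groups share no animal with each other. Of the genes called in lactating cows, 320 were also tested in heifers, and 319 of them (99.7%) moved in the same direction, against 74.6% of all genes tested in both. In non-lactating cows 311 of 320 did (97.2%), against 72.2% of all genes. Called there in the same direction were 259 in heifers, which is 80.9% of the 320 and 13.6% of the 1906 genes called in heifers and tested in lactating cows. In non-lactating cows there were 223, which is 69.7% of the 320 and 21.7% of the 1029 called there and tested in lactating cows.

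A total of 196 genes were called in all 3 groups, 126 higher and 70 lower ipsilaterally. FABP3 had log2 fold changes of 3.04 in heifers and 4.20 in non-lactating cows, CAMK2B 2.95 and 3.04, and LTF 3.11 and 3.24, beside the 4.20, 3.24 and 2.84 given above for lactating cows. MUC4 had -1.88 and -1.60, and PGR -1.06 and -0.92. All of these were called in both groups. ESR1 was called in heifers (-0.49) and not in non-lactating cows (-0.45, edgeR adjusted p = 0.120).

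Genes called only in the lactating cows numbered 37, which by itself does not show a difference. S100A4 had a log2 fold change of 1.71 in lactating cows, 0.06 in heifers and 0.11 in non-lactating cows. SLC39A14 had -0.92, -0.17 and 0.15. For the differences themselves the interaction term between side and metabolic group was tested, and edgeR called 0 of 14620 genes between lactating cows and heifers (0%) and 0 of 14739 between lactating and non-lactating cows (0%). Before adjustment 611 and 723 genes had a p under 0.05, in both tests slightly fewer than this threshold passes by chance. Without cow A these were 887 of 14684 and 1061 of 14848, more than chance passes. Without cow B, C or D they were 530, 531 and 628 against heifers, and 695, 529 and 486 against non-lactating cows. With 4 against 5 pairs, such counts do not show that the side effect is equal in the groups. DESeq2's Wald test called 1 and 8. FAM13C came nearest in the latter test, with log2 fold changes of 0.31 in lactating and -0.82 in non-lactating cows (edgeR adjusted p = 0.224). TP53I11 followed, with 0.27 and 2.25. DESeq2 with the animal as a block called both (adjusted p = 0.000954 and 0.00205). In the test against heifers LOC104970621 (0.22 against -0.83) and MATN1, a cartilage matrix protein (-1.13 against -2.82), ranked first without passing.

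Genes called in the other animals, which the lactating cows had no part in choosing, mostly had the same direction in lactating cows. Of 1906 genes called in heifers and tested here, 1861 (97.6%) had the same direction in lactating cows, and of 1029 called in non-lactating cows 994 (96.6%). In single cows the share ranged from 85.5 to 88.1% for the heifers' genes and from 78.2% in cow D to 93.2% in cow B for those of the non-lactating cows. Over the 1023 genes called in non-lactating cows and tested in all 3 groups, the median log2 fold change of the higher genes was 0.57 in lactating cows and 0.66 in heifers, and that of the lower genes -0.47 and -0.67. For the 1900 genes called in heifers and tested in all 3 groups, the higher genes had nearly equal medians. These were 0.42 in lactating and 0.43 in non-lactating cows, and the lower genes had -0.38 and -0.53.

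**Figure D5:**
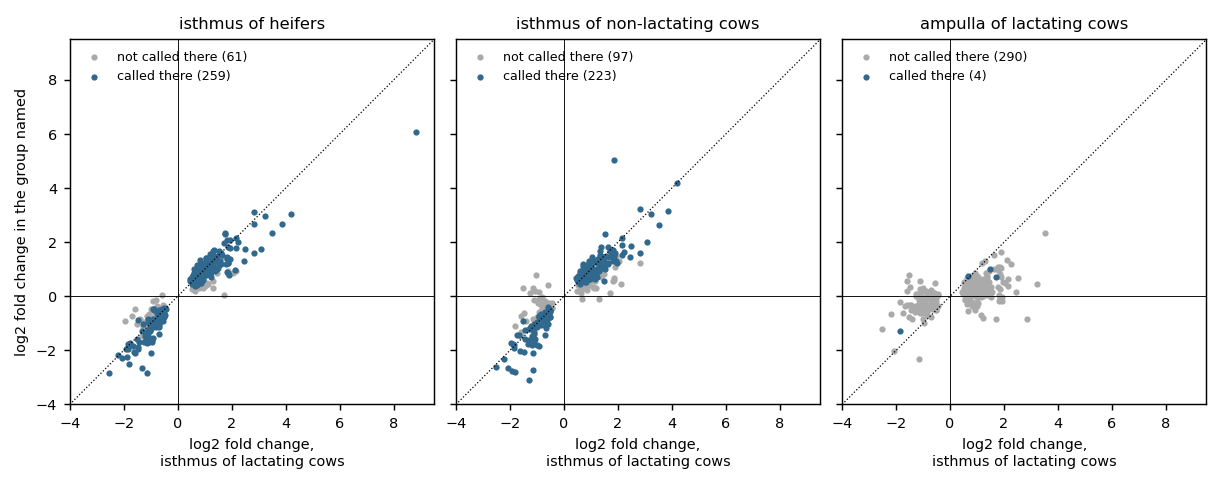
Log2 fold changes of the genes called in the isthmus of lactating cows (horizontal axes) against those in the isthmus of heifers, the isthmus of non-lactating cows and the ampulla of lactating cows (vertical axes), with equality as a dotted line. Blue points were called in the group named, 259, 223 and 4 genes.

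Between the ampullae of the lactating cows edgeR called 26 of 13938 genes (0.187%). The estimate rested on 3 complete pairs, since 2 libraries had tags without a partner and dropped out. The ipsilateral one of these is named as lactating but carries the tag of a non-lactating cow. In turn, an ipsilateral ampulla library named as non-lactating carries the tag of the contralateral one. With 3 pairs the isthmus gave 18 to 639 calls, depending on the cow left out, so the counts of both regions are not comparable. Of 294 genes called in the isthmus and tested in the ampulla, 243 (82.7%) had the same direction, against 61.7% of all genes, and 4 were called. The median log2 fold change of the up-regulated genes was 0.93 in the isthmus, where they were chosen, and 0.28 in the ampulla. A test of the difference between both regions called 3 of 14945 genes (0.0201%). CAMK2B rose by 3.24 in the isthmus and had 0.44 in the ampulla, ACSL4 rose by 1.14 and had -0.01, and CLDN11, a tight-junction claudin, fell by 1.52 and had 0.80. The differences were 2.80, 1.14 and -2.32, each at an edgeR adjusted p of 0.0423. For CLDN11 the isthmus values were 3.62, 2.52, 4.87 and 2.31 CPM ipsilaterally and 8.92, 9.96, 10.6 and 8.07 CPM contralaterally in cows A to D, without overlap. When the 2 ampulla libraries without a partner were taken as a pair of 1 cow, so that 4 pairs entered, 11 genes were called, CAMK2B and ACSL4 among them and CLDN11 not. This pairing takes the tags, and not the group names, to have been exchanged. Whether tags or group names are in error was not tested. Without cow B, C or D the test called 0 genes and without cow A 18.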

How the data were processed

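Epithelial cells of the isthmus were scraped from both oviducts of 4 lactating cows, and stranded libraries were made from total RNA of RIN 7.9 or greater (Encore Complete, NuGEN). Per the submitters' notes bcl2fastq (1.8.4), TopHat2 (2.0.13) and HTSeq (0.6.1) were used. The authors mapped 100-bp single-end reads to Btau_4.6.1 and counted them by strand in intersection-strict mode. The deposited values are whole-number counts per gene for 31903 genes, not normalized, and the 5 summary lines were left out. These lines held 88.5 to 91.3% of the counted alignments. Columns named the group and the animal and were matched to groups by name, and the number of columns outside the series was 0. Sequences and coordinates were not used here.

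The 8 libraries were analysed in R (4.3.3) with limma (3.58.1), edgeR (4.0.16) and, as an alternative, DESeq2 (1.42.0). Genes passed filterByExpr with a minimum count of 10, counts were TMM-normalized, and the side was tested by edgeR's quasi-likelihood F test with the animal as a block, at a Benjamini-Hochberg adjusted p under 0.05. The study's methods name DESeq2 and no animal term. The block was used because both oviducts of a pair come from 1 cow. After centring each side on its mean, the 2 libraries of a cow correlated at 0.39, 0.55, 0.52 and 0.42 (cows A to D) across 10803 genes whose mean log2 CPM exceeded 3. A standard error is the size of the log2 fold change over the square root of its F value. CPM divide counts by the TMM-scaled library. Log2 CPM used a prior count of 2, random thinning a seed of 1 and detection a floor of 3 counts, which covers counting error only. Libraries of a side differed by more than sampling noise (chi-square per degree of freedom at least 10.3 over 12 pairs). The fits were tested on simulated data.

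Named genes were the 12 largest increases and 12 largest decreases among called genes with a symbol and the same direction in 4 of 4 cows, up to 8 called genes per list and direction, the genes that open a list, and the 2 genes with the smallest p in each test of a difference. Of 649 symbols listed, 617 were found by symbol in the table. A few genes that the rule names are not reported here. The members and lists were chosen with earlier results of these data known. AKR1B1, ANO1, SCNN1A, IFI6, UHRF1, CALR, SEC61G, CFB, GSN, TIMP1, M-SAA3.2, LOC101906669, the markers FSHR, HSD3B1, HBA, HBB and CLDN5, ESR2, LHCGR and the genes of the closing observations were named after their values were seen. Alternatives were no block, DESeq2, RLE factors, no filter or a median count above 1, robust dispersions, thinned counts, an unadjusted p under 0.001, all 28 isthmus libraries in 1 fit and each cow left out. The pairing of both ampulla libraries without a partner was added after seeing the data.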

Additional observations from a re-analysis of the deposited data

Results flagged for a closer look

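In each group of 4 libraries of the 83 named genes, the highest or lowest value was compared with the others by Dixon's test, which chance passes in about 1 of 20 groups. Of 166 groups examined, 11 passed, and 7 of these were libraries of cow A. LTF reached 4160 CPM in the ipsilateral library of cow A against 538 to 1035 CPM in the other cows, and 1032 CPM in its contralateral library against 64.3 to 146 CPM. LUM reached 70.2 CPM ipsilaterally in cow A against 0.203 to 6.10 CPM, and 297 CPM contralaterally against 0.866 to 9.49 CPM. CD36 was at 15.3 CPM in the ipsilateral library of cow A against 1.89 to 3.65 CPM, TIAM2 at 4.82 CPM against 2.31 to 2.64 CPM, and PLIN3 was low at 19.1 CPM against 34.3 to 37.3 CPM.

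The other libraries far from their group belonged to cows C and D. FAM13C was at 214 CPM in the ipsilateral library of cow C against 69.4 to 90.9 CPM, and at 160 CPM in its contralateral library against 63.5 to 72.0 CPM. TFRC was at 176 CPM in the ipsilateral library of cow C against 57.3 to 73.7 CPM. In cow D, LTBP2 was low ipsilaterally, at 104 CPM against 153 to 158 CPM.

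For 3 genes the effect of the side differed between isthmus and ampulla by a test of the difference. The isthmus minus the ampulla gave 2.80 for CAMK2B, 1.14 for ACSL4 and -2.32 for CLDN11 on the log2 scale (edgeR adjusted p = 0.0423 for each).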

How the results depend on the processing

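The 323 genes called between the sides of the isthmus in lactating cows became 26 without the replicate block, 1059 without a filter on low counts, and 18 to 639 with a cow left out (18 without cow B, 75 without D, 143 without C and 639 without A). Leaving out a cow also leaves fewer pairs. With DESeq2, RLE factors, a median count above 1, robust dispersions, thinned counts, an unadjusted p under 0.001 or all 28 isthmus libraries in 1 fit, 303 to 454 genes were called, and 222 to 323 of these were among the 323. Of 66 named called genes, 15 kept their call in every alternative other than leaving out a cow, and all 66 kept their direction throughout. Since each of the 66 moved the same way in 4 of 4 cows, the direction could hardly turn. Among genes that were not called, the log2 fold change turned for GCLC and TP53I11 without cow B (ranges with a cow left out -0.071 to 0.0070 and -0.077 to 0.48), MKI67 without cow C (-0.69 to 0.22) and HK1 without cow D (-0.072 to 0.033).

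The difference from heifers, 0 genes, stayed at 0 to 0 with a cow left out and was 1 with DESeq2 and the replicate block. The difference from non-lactating cows, 0 genes, stayed at 0 to 0 with a cow left out and was 8 with DESeq2. The difference between isthmus and ampulla, 3 genes, became 0 without the replicate block, 43 with DESeq2, 0 to 18 with a cow left out, and 11 with both ampulla libraries that lack a partner taken as a pair in the fit with the replicate block. RLE factors changed none of these counts. The cause of these changes was not tested. Depth limits genes under about 10 counts per library, and with 4 pairs a change of small size is called only where the cows vary little.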

Other observations

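Outside the lists, several called genes are described here that were chosen after their values were seen, so that they say nothing of how the other genes of their kind moved. The substrates that link the insulin receptor to its signaling chain were both lower ipsilaterally. IRS1 was at 97.7, 123, 145 and 102 CPM ipsilaterally and at 280, 235, 259 and 166 CPM contralaterally in cows A to D (log2 fold change -0.998 ± 0.14, edgeR adjusted p = 0.0111), and IRS2 fell by 1.12 ± 0.15 from 26.4 to 42.0 CPM to 13.7 to 18.9 CPM (edgeR adjusted p = 0.00763). Neither overlapped between the sides. TXNIP, which binds thioredoxin, fell by 0.70, the sestrin SESN3 by 0.85 and the zinc-finger factor KLF10 by 0.87, also without overlap. IRS1 had log2 fold changes of -1.11 in heifers and -0.94 in non-lactating cows, and IRS2 of -1.36 and -1.38, all of them called.

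PER3, a repressor of the clock, was at 14.9, 21.4, 15.8 and 19.1 CPM against 33.2, 41.5, 24.5 and 41.1 CPM (log2 fold change -0.97 ± 0.15, edgeR adjusted p = 0.0193). NR1D2, a nuclear receptor of the clock, fell by 0.69. Both sides of a cow were taken at the same slaughter.

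Genes of the matrix and basement membrane were called in both directions. FBN1 and FBN2, which encode fibrillins, fell by 1.01 ± 0.18 and 1.34 ± 0.26, with cow C highest on both sides and overlap between the sides. The laminin chains LAMA1 and LAMA3 fell by 1.40 and 0.90 without overlap, FRAS1 by 0.82 and the netrin NTN4 by 1.18 ± 0.13 (29.2 to 44.4 against 67.1 to 127 CPM). COL25A1, a membrane collagen, rose by 2.04 (3.13 to 38.8 against 1.73 to 5.81 CPM, with overlap), and LTBP2, PLOD1 and TIMP1 rose as given above. CLDN10, a claudin, fell by 1.10 (69.9 to 98.9 against 134 to 240 CPM). GREB1, an estrogen-responsive gene, fell by 0.68 and PRLR, the prolactin receptor, by 1.28, each without overlap.

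Of 48 tested subunits of complexes I, III and IV of the respiratory chain, taken by symbol after values were seen, 6 were called higher and 0 lower, and 48 had a log2 fold change above 0 (median 0.43). Over all genes tested, 1.46% were called higher and 0.863% lower. NDUFB6 rose by 0.83, NDUFC2 by 0.62, NDUFA13 and NDUFA3 each by 0.60, UQCRB by 0.79 and COX8A by 0.66, all of them without overlap. NDUFA13 was at 88.4 to 103 CPM ipsilaterally and 58.9 to 67.5 CPM contralaterally. SPDEF, a transcription factor of secretory epithelia, rose by 0.99 (120 to 162 against 38.1 to 97.8 CPM), and the actin-binding proteins PFN1 and CFL1 rose by 0.89 and 0.60.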
